A study of Homo sapiens with 8 samples.

Results

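Replication-dependent histone genes are the clustered, intronless genes that supply the core histones H2A, H2B, H3 and H4 and the linker histone H1 while a cell copies its DNA. They were taken as every symbol of the array's gene table that begins H2AC, H2BC, H3C or H4C with digits, or that runs H1-1 to H1-6, without pseudogenes. The table holds 69 such symbols, and 58 of them, of 17958 genes in all, have a probe set that names no other gene. The probe sets of H4C14 and H4C15 held identical values on all 8 arrays and were counted once, so the 58 genes gave 57 measurements: 6 of H1, 14 of H2A, 16 of H2B, 9 of H3 and 12 of H4. The other 11 symbols (H2AC7, H2AC18, H2AC19, H2BC15, H2BC18, H3C4, H3C13, H3C14, H3C15, H4C11 and H4C12) occur only on probe sets that name several genes. Copies within a class are nearly identical, so a probe set can capture RNA of a relative and the assignment of a value to 1 gene is uncertain.

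The study measured RNA of lymphoma cell lines on whole-transcript arrays. The groups were KMH2 cells after 24 h of glucosamine (3 arrays), Ramos cells (2 arrays) and KMH2 control cells (3 arrays), all grown in the same serum-supplemented medium. KMH2 is a line from Hodgkin lymphoma and Ramos a line from Burkitt lymphoma, both of B-cell origin; glucosamine is an amino sugar that enters the hexosamine pathway, and the labels state no dose of it. The design text calls the KMH2 arrays biological replicates; it places 1 Ramos array after glucosamine, whereas the labels call both control, so Ramos is defined here by the cell line alone and both arrays are given singly.

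Histone messages are made mainly in S phase, when newly copied DNA needs packaging. They end in a conserved stem-loop in place of a poly(A) tail: the stem-loop-binding protein SLBP and the U7 snRNP direct their 3′ end formation, and the same stem-loop later serves their rapid decay when replication stops. Transcription takes place at histone locus bodies organised by NPAT, a target of cyclin E and CDK2, and proliferating lymphoma cells carry large amounts of these messages.

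The promoters of the genes on which the results turn show the short elements of each class. For the gene with the largest fall of each class after glucosamine, and for the highest and the lowest gene in Ramos, among those with a promoter listed, the 200 bases before the transcription start follow, 5′ to 3′ along the gene (RefSeq, GRCh38.p14), with matches to 4 motifs on either strand in capitals: the octamer ATTTGCAT, the CCAAT box, the TATA box TATAA and the H1 box AAACACA. H4C14 was passed over for H4C13, because its direction is not settled.
H1-5: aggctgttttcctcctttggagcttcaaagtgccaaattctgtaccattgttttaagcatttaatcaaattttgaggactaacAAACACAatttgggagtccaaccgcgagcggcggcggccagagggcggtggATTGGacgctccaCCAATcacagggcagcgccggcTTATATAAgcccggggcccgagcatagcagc
H2AC15: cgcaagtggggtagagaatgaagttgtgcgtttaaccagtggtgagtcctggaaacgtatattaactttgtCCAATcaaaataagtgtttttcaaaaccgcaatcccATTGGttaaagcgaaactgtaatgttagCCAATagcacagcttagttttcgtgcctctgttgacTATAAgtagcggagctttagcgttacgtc
H2BC14: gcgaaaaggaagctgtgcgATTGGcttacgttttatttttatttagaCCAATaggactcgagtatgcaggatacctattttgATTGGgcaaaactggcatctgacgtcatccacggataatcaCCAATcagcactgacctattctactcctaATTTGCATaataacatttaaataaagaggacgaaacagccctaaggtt
H3C1: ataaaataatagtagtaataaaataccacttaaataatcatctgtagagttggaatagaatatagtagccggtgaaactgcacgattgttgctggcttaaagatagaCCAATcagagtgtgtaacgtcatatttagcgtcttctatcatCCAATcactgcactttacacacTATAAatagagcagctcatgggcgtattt
H4C13: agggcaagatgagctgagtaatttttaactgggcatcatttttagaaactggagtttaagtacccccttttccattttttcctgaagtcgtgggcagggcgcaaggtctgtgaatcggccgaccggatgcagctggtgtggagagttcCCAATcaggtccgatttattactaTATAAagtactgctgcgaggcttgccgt
H2BC9: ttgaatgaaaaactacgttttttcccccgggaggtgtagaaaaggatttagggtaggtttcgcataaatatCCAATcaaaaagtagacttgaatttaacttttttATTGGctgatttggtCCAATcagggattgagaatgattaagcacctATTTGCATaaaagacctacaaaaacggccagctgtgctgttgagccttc
H1-1: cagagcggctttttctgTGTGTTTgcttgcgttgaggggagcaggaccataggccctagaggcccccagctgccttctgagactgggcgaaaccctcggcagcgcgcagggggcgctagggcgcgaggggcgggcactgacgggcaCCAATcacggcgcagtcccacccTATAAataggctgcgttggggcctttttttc
They lie at chr6:27867589-27867788, minus strand (H1-5), chr6:27838376-27838575, minus strand (H2AC15), chr6:27814822-27815021, plus strand (H2BC14), chr6:26020251-26020450, plus strand (H3C1), chr6:27873535-27873734, minus strand (H4C13), chr6:26251414-26251613, plus strand (H2BC9) and chr6:26017788-26017987, minus strand (H1-1). The H1-5 and H1-1 windows hold the H1 box, at 117 and 183 bases before the start. The H2BC14 and H2BC9 windows hold the octamer, the binding sequence of POU2F1 (OCT1), at 48 and 49 bases before the start. H3C1 and H4C13 each carry a TATA box 29 and 28 bases before the start, with CCAAT upstream of it. In H1-5 the TATAA matches of the 2 strands overlap each other.

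Across the family the motifs followed the histone class. A promoter was listed for 53 of the 58 genes (not for H2AC12, H3C11, H3C12, H4C1 and H4C3). The octamer stood in 13 of 16 H2B and 6 of 13 H2A promoters and in 0 of the 6 H1, 7 H3 and 11 H4 promoters, against 1.32% of the 27305 promoters listed for all genes. The H1 box stood in 6 of 6 H1 promoters and in no promoter of the other classes, against 3.86% of all promoters. CCAAT was present in all H1, H2A, H2B and H3 promoters listed and in 3 of 11 H4 promoters (28.9% of all promoters), and TATAA in 43 of 53 (16.0% of all promoters). These counts describe letters in a window and not bound factors.

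The median signal of an array was 5.62 to 5.68 and its upper quartile 7.75 to 7.83 on the log2 scale, and by these summaries no array stood apart. On the histone genes 2 arrays did: glucosamine replicate 1 lay above glucosamine replicates 2 and 3, and Ramos replicate 1 above Ramos replicate 2, as detailed with the results they touch. The lymphocyte label was checked against markers. The mean of 7 B-cell markers was 5.94 to 6.27 in KMH2 glucosamine, 10.51 to 10.57 in Ramos and 6.03 to 6.33 in KMH2 control arrays; 4 of the 7 exceeded the table's median signal of 5.7 in KMH2, and Hodgkin cells are known for a reduced B-cell programme. The 5 Hodgkin markers averaged 8.40 to 8.49, 6.19 to 6.27 and 9.10 to 9.15 in the same groups, and all 5 (TNFRSF8, CCL17, FSCN1, GATA3 and BATF3) fell after glucosamine; the part of that shift in the histone values was not tested. Erythroid markers were above the median in 0 of 3 cases, and epithelial and fibroblast markers in 3 of 7 cases, in both lines. T-cell and myeloid markers exceeded it in 2 of 6 and 3 of 5 cases in KMH2, and in 0 of 6 and 0 of 5 cases in Ramos.

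After 24 h of glucosamine members of all 5 histone classes fell in KMH2 cells, H4 genes least often. Most members did not pass limma's moderated test. Of 57 measurements 25 fell (43.9%, adjusted p under 0.05), 0 rose and 32 did not pass; over all 17958 genes 14.1% fell and 12.0% rose. For 1 of the 25, H4C14/H4C15, the direction is not settled, because of a further probe set of the same genes that rose; without it 24 of 56 fell. At an unadjusted p under 0.05 the counts were 29 lower and 0 higher, against 18.7% and 17.6% of all genes. The median difference of the family was -0.27 on the log2 scale, against 0.01 for all genes, and 51 of 57 differences were below 0. All glucosamine arrays lay below all control arrays in 26 of 57 cases (45.6%), against 20.8% of all genes, and lay above them in 0 cases. The comparison asks how these lymphoma cells respond to glucosamine, and in bulk RNA fewer cells in S phase and less histone RNA per cell cannot be told apart.

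Falls occurred on both sides of the table's median signal, and the observed share that fell varied by class. Among the 42 members above the table's median signal 20 fell (47.6%), against 22.1% of the 10628 genes above it. At or below the median 5 of 15 fell (H1-6, H2AC8, H2BC10, H3C7 and H4C13), against 2.55% of genes there. The share that fell was 3 of 6 for H1, 7 of 14 for H2A, 7 of 16 for H2B, 5 of 9 for H3 and 3 of 12 for H4, with median differences of -0.29, -0.36, -0.30, -0.42 and -0.11. Without the unsettled H4C14/H4C15 the H4 count was 2 of 11 (18.2%). Of all genes 14.1% fell, so this H4 count is near the share of genes in general. The differences between classes were not tested.

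**Figure D1:**
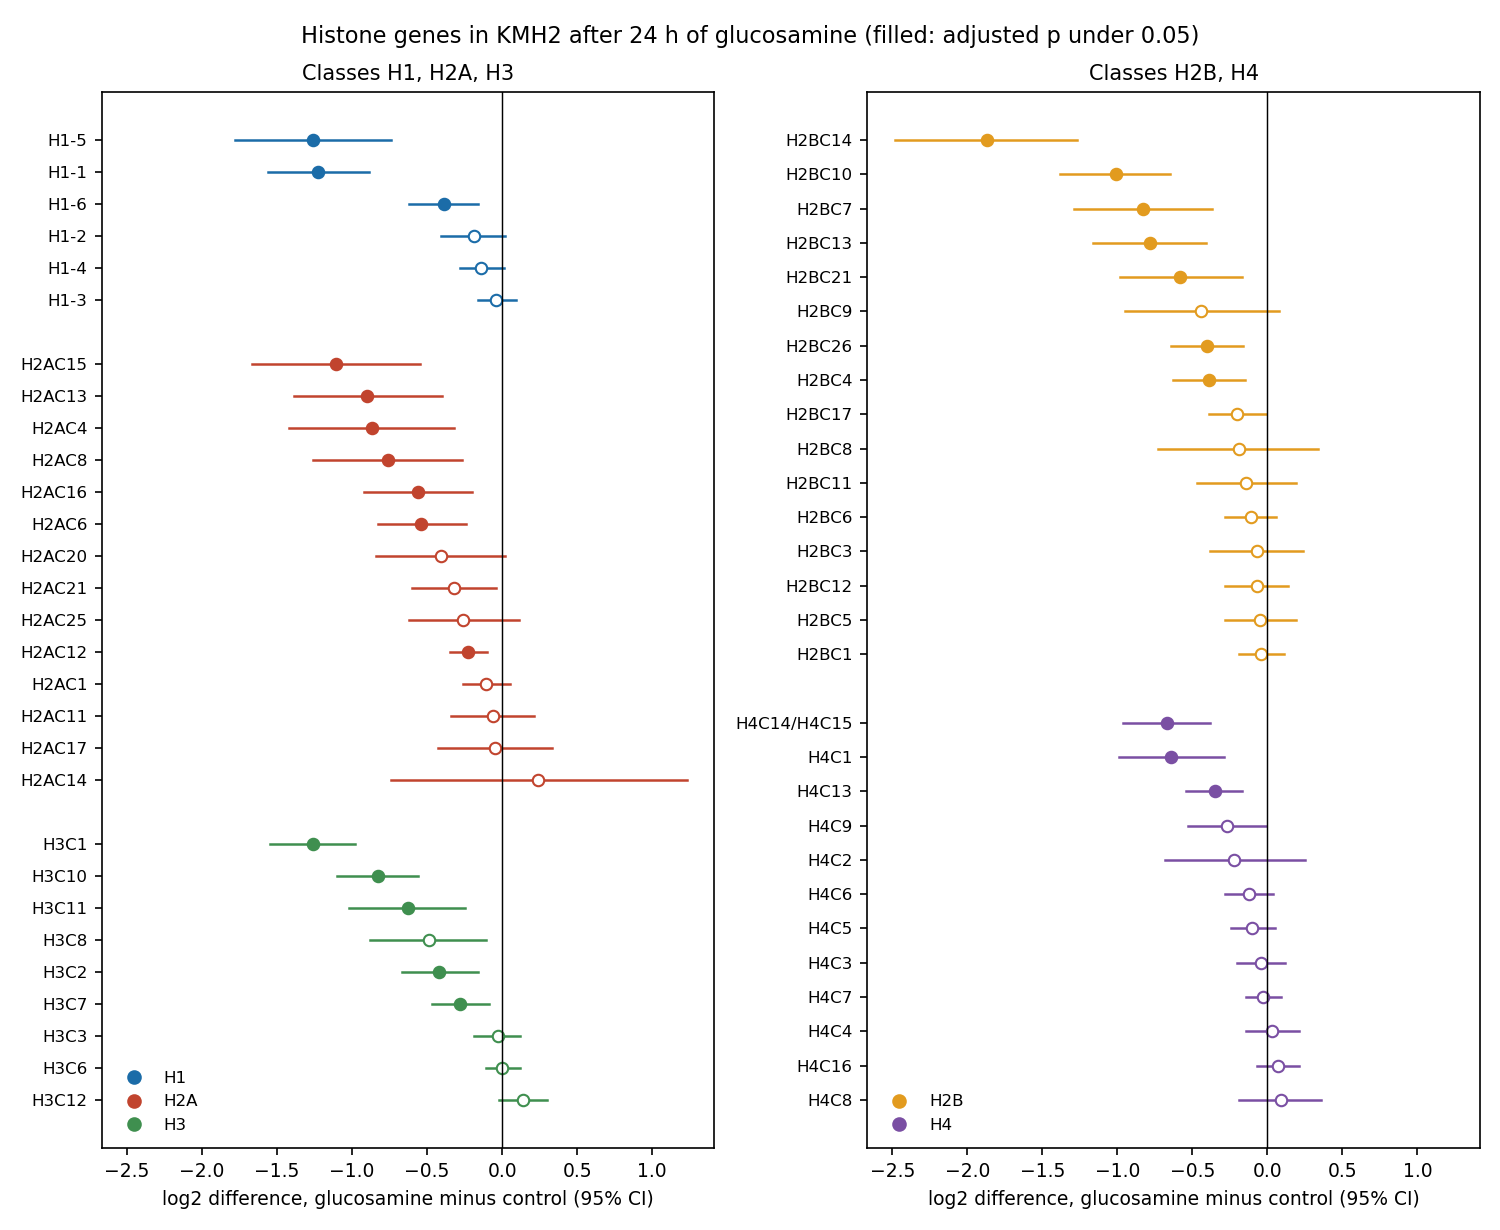
Log2 difference (KMH2 glucosamine minus KMH2 control) of the 57 histone measurements with 95% confidence intervals from limma, grouped by class; filled points passed the test at an adjusted p under 0.05 (n = 3 arrays per group). The 25 filled points all lie left of 0, from -0.23 (H2AC12) to -1.87 (H2BC14), and each class also holds open points close to 0.

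In the linker class, whose proteins bind the DNA between nucleosomes, H1-1 and H1-5 carried the change. H1-1 had 8.00, 7.39 and 7.52 (replicates 1, 2 and 3) after glucosamine, against 8.98, 8.79 and 8.82 in control cells on the log2 scale. The groups did not overlap, and the difference was -1.23 ± 0.15 (SE; 2.34-fold, adjusted p = 0.000656). H1-5 had 10.10, 9.09 and 9.32 after glucosamine, against 10.91, 10.74 and 10.65 in control cells. It was 2.40-fold lower (-1.26 ± 0.23, adjusted p = 0.00451), again without overlap and with the first glucosamine array nearest to the controls. H1-6, the testis-specific H1t, was dim in these cells and fell by 0.39 (adjusted p = 0.0232); its adjusted p was 0.0723 to 0.0774 without control replicate 2 or 3 or glucosamine replicate 2. H1-2, H1-3 and H1-4 did not pass, with differences of -0.19, -0.04 and -0.14. H1-4 has the highest mean signal of the class: 12.25, 12.11 and 12.11 after glucosamine and 12.34, 12.22 and 12.31 in control cells, with overlapping ranges.

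Among the H2A genes, whose products pair with H2B in the nucleosome, H2AC15 fell most by its own probe set. It had 9.46, 8.31 and 8.92 after glucosamine, against 10.09, 9.89 and 10.05 in control cells. The groups did not overlap, and the difference was -1.11 ± 0.24 (2.16-fold, adjusted p = 0.011). A further probe set that names both H2BC15 and H2AC15 differed by -0.25 and did not pass (adjusted p = 0.111). The size of the H2AC15 fall is thus uncertain. H2AC13 (-0.90), H2AC4 (-0.87), H2AC8 (-0.76), H2AC16 (-0.56), H2AC6 (-0.54) and H2AC12 (-0.23) also fell, with adjusted p between 0.0157 and 0.0316. H2AC12 showed the smallest fall, in tight groups, with 7.21, 7.30 and 7.18 after glucosamine against 7.44, 7.45 and 7.48 in control cells. H2AC21, the member with the highest mean signal, had 11.63, 11.14 and 11.18 after glucosamine and 11.66, 11.59 and 11.66 in control cells. Its difference of -0.32 did not pass (adjusted p = 0.0962, and 0.0352 with the replicate block), and the first glucosamine array lay among the controls. H2AC14 was the most variable gene of the class, with 8.31, 6.32 and 6.82 after glucosamine and 6.82, 7.08 and 6.82 in control cells. Its difference was 0.24 with a 95% interval of -0.74 to 1.23. Of the 7 calls, that of H2AC15 held without any 1 array. The adjusted p of H2AC13 was 0.0631 without control replicate 3. The adjusted p of the other 5 exceeded 0.05 without several single arrays of either group, reaching 0.0998 for H2AC4, 0.0918 for H2AC8, 0.103 for H2AC16, 0.0618 for H2AC6 and 0.0655 for H2AC12 without glucosamine replicate 3 (H2AC6 reached 0.0639 without control replicate 3).

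H2BC14 showed the steepest fall of the whole family. Its signal was 10.37, 9.24 and 9.35 after glucosamine, against 11.66, 11.49 and 11.43 in control cells. The closest arrays of the groups were about a log2 unit apart, and the difference was -1.87 ± 0.26 (3.66-fold, 95% interval -2.48 to -1.27, adjusted p = 0.00141). H2BC10 was dim and fell by 1.01 (5.15, 4.54 and 4.71 after glucosamine, 6.03, 5.69 and 5.71 in control cells; adjusted p = 0.00227). H2BC13 had 7.58, 6.93 and 6.90 after glucosamine and 7.91, 7.90 and 7.94 in control cells, a fall of 0.78 (adjusted p = 0.00905). In both genes the groups were separate, with the first glucosamine array the highest of its group. H2BC7 (-0.83), H2BC21 (-0.58), H2BC26 (-0.40) and H2BC4 (-0.39) also fell, with adjusted p between 0.0176 and 0.0438. H2BC21, which is known to make polyadenylated transcripts as well, was the 1 called gene whose groups overlapped: 8.80, 8.12 and 8.21 after glucosamine against 8.74, 9.08 and 9.05 in control cells. H2BC12, the member with the highest mean signal over all 8 arrays, stayed between 11.33 and 11.42 after glucosamine and between 11.23 and 11.59 in control cells (-0.07, adjusted p = 0.653). In control cells alone the mean of H2BC14 was higher, at 11.53 against 11.43 for H2BC12. H2BC1, the testis-specific TH2B, was at 3.53 to 3.72 after glucosamine and 3.65 to 3.75 in control cells. The calls of H2BC14, H2BC10 and H2BC13 held without any 1 array. Without single arrays of either group the adjusted p of the other 4 exceeded 0.05, reaching 0.141 for H2BC21 and 0.0852 for H2BC4 (control replicate 2), 0.0858 for H2BC26 (control replicate 3) and 0.0660 for H2BC7 (glucosamine replicate 3).

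The H3 genes encode the canonical H3 that the CAF-1 chaperone deposits behind the replication fork. H3C1 had 8.47, 8.01 and 7.99 after glucosamine, against 9.53, 9.37 and 9.37 in control cells. The groups were separated by about a log2 unit, and the difference was -1.26 ± 0.12 (2.40-fold, adjusted p = 0.000299), the smallest adjusted p of the family. H3C10 had 8.79, 8.35 and 8.37 after glucosamine and 9.23, 9.38 and 9.40 in control cells, a fall of 0.83 ± 0.12 (1.78-fold, adjusted p = 0.00147) without overlap. H3C11 had 11.01, 10.33 and 10.43 after glucosamine, against 11.37, 11.22 and 11.09 in control cells (-0.63, adjusted p = 0.0246). H3C2, which has the highest mean signal of the class, had 11.79, 11.33 and 11.43 after glucosamine and 11.98, 11.93 and 11.89 in control cells (-0.42, adjusted p = 0.0255). Both were separate, but by at most 0.10 between the nearest arrays. The dim H3C7 fell by 0.28 (adjusted p = 0.0391). H3C8 was separate yet missed the threshold (-0.49, adjusted p = 0.0637; 0.0173 with the replicate block), and H3C3, H3C6 and H3C12 had differences of -0.03, 0.00 and 0.14. The calls of H3C1 and H3C10 held without any 1 array. Those of H3C11, H3C2 and H3C7 did not hold without several single arrays, with adjusted p of at most 0.0875, 0.0903 and 0.131, each without glucosamine replicate 3.

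H4 proteins pair with H3 at the core of the nucleosome, and 3 of their 12 measurements passed the test. H4C1 had 7.67, 7.04 and 7.13 after glucosamine, against 8.01, 7.79 and 7.97 in control cells, a fall of 0.64 ± 0.15 (adjusted p = 0.0164) without overlap. H4C13, dim in KMH2, had 4.68, 4.56 and 4.39 after glucosamine and 4.99, 4.87 and 4.84 in control cells (-0.35, adjusted p = 0.0138). The probe set shared in value by H4C14 and H4C15 had 11.65, 11.08 and 11.38 after glucosamine and 12.09, 12.01 and 12.03 in control cells (-0.67, adjusted p = 0.00581). A further probe set that names both H4C14 and H4C15 moved the other way, higher by 0.72 after glucosamine (adjusted p = 0.0032), so the direction of this pair is not settled. H4C3, the member with the highest mean signal of the class, had 12.15, 11.91 and 11.96 after glucosamine and 12.06, 12.03 and 12.04 in control cells, overlapping (-0.04, 95% interval -0.20 to 0.12). The remaining 8 H4 genes had differences between -0.27 (H4C9) and 0.09 (H4C8) and did not pass, although the groups of H4C9 were separate (adjusted p = 0.125, and 0.0175 with the replicate block). The H4C1 call was lost without control replicate 1 or 3 or glucosamine replicate 2 or 3 (adjusted p 0.0517 to 0.0629); those of H4C13 and H4C14/H4C15 held without any 1 array.

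**Figure D2:**
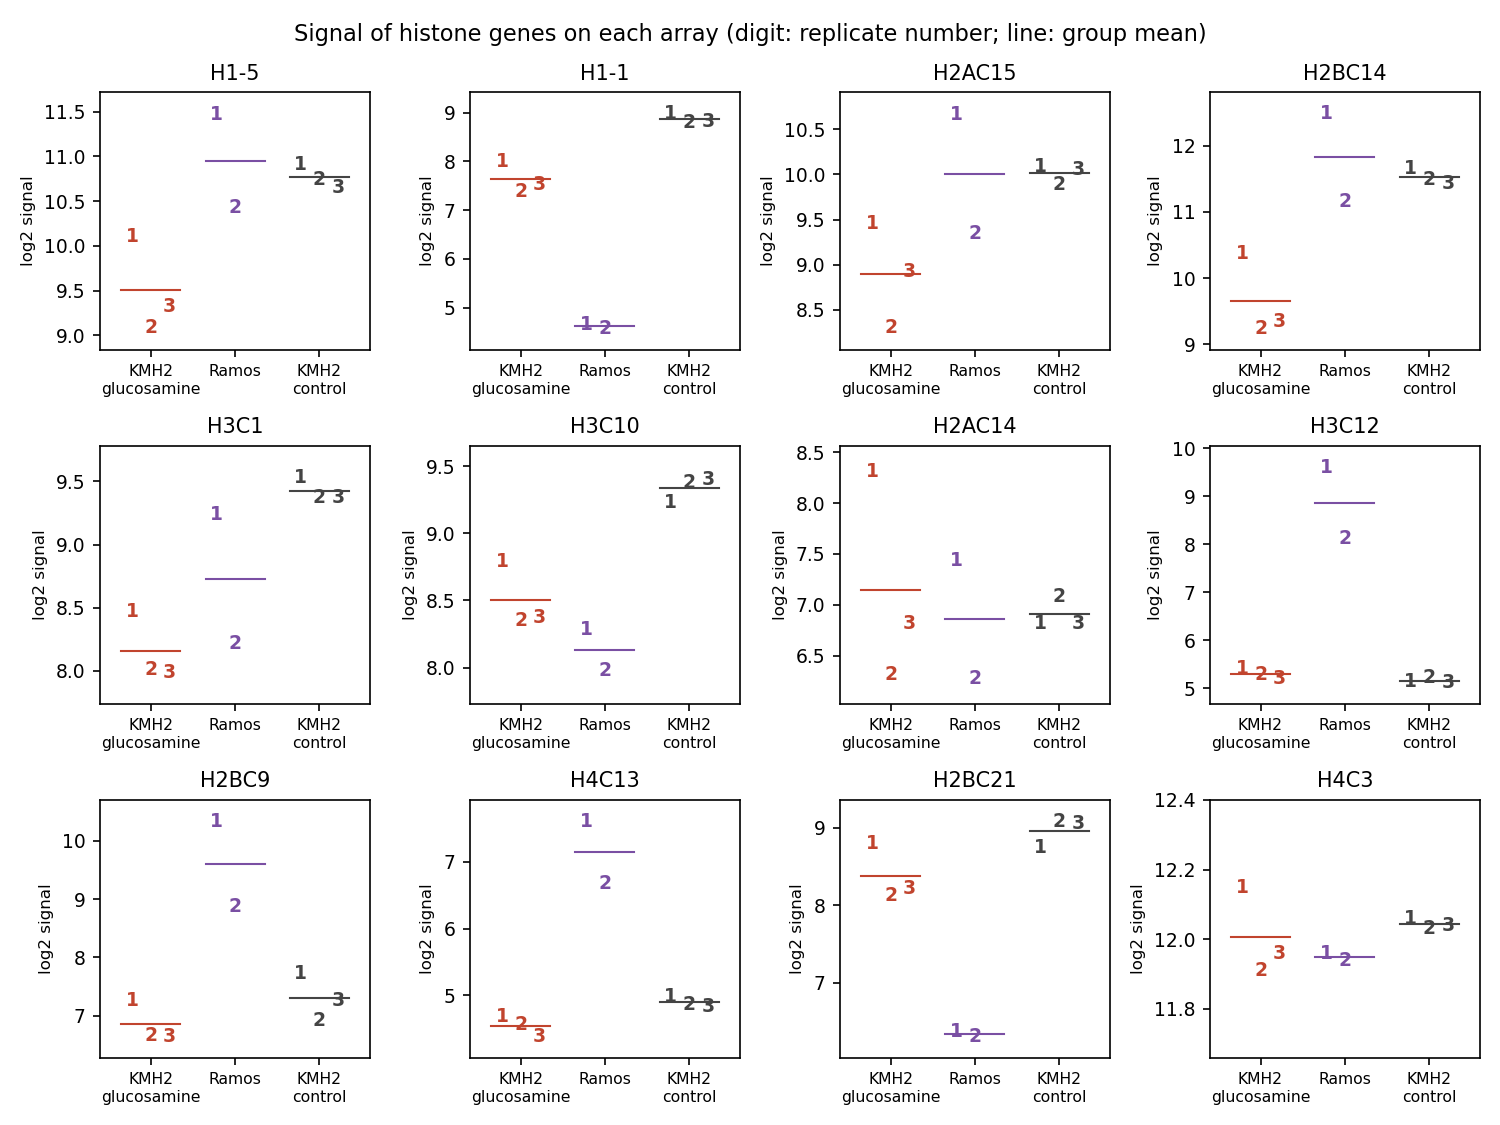
Log2 signal on each array for 12 histone genes in KMH2 glucosamine, Ramos and KMH2 control cells; digits are replicate numbers and lines are group means, and each panel has its own axis. H2BC14 lies at 9.24 to 10.37 in glucosamine and 11.43 to 11.66 in control arrays, and digit 1 is the highest of the glucosamine arrays in all 12 panels.

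On the histone genes the glucosamine replicates differed in a shared direction. Replicate 1 was the highest of the 3 glucosamine arrays in 51 of 57 cases (89.5%), against 41.6% of all genes, and its median excess over the mean of replicates 2 and 3 was 0.42, against 0.01 for all genes. Set against the control array of the same number, the median difference of the family was -0.13, -0.31 and -0.40 for numbers 1, 2 and 3. The replication licensing genes, a list of 30 genes with measurements, had medians of -0.48, -0.41 and -0.46 in the same pairs, and glucosamine replicate 1 was their highest glucosamine array in 7 of 30 cases. Without glucosamine replicate 1 the family had 35 falls (61.4%, against 14.2% of all genes) and a median of -0.41, and the 25 falls found with all arrays were among the 35. The 10 further genes were H1-2, H2AC11, H2AC20, H2AC21, H2AC25, H2BC8, H2BC9, H2BC11, H3C8 and H4C2. Without any 1 of the other 5 arrays 12 to 14 genes fell (21.1% to 24.6%, against 10.7% to 12.1% of all genes). With the replicate number as a block, which compares same-numbered arrays, 32 fell (56.1%, against 15.9% of all genes), including those 25. The 7 further genes were H2AC20, H2AC21, H2AC25, H2BC9, H2BC17, H3C8 and H4C9, with adjusted p between 0.00391 (H2BC9) and 0.0477 (H2AC20). The part of cell state or RNA quality of replicate 1 in these values was not tested.

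**Figure D3:**
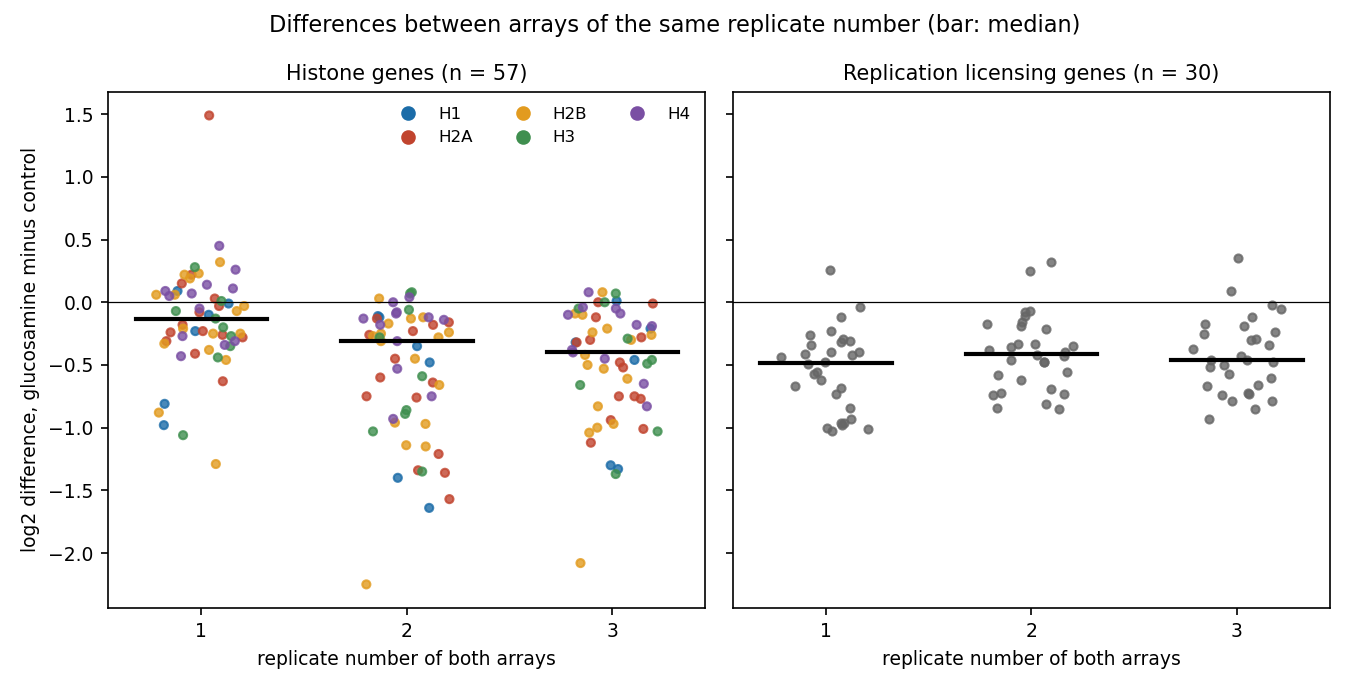
Log2 difference (KMH2 glucosamine minus KMH2 control) between arrays of the same replicate number, for the 57 histone measurements coloured by class and for 30 replication licensing genes; bars are medians. The histone medians are -0.13, -0.31 and -0.40 for numbers 1, 2 and 3, and the licensing medians -0.48, -0.41 and -0.46.

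Neighbouring genes that share a promoter region did not always pass the test together. Among the 53 members with a promoter listed, 10 head-to-head pairs had starts 215 to 979 bases apart, 9 of them an H2A with an H2B gene. Pairs with a gene that lacks a listed promoter or a probe set of its own could not be found. Both members fell in 2 pairs, H2BC4 with H2AC6 and H2BC13 with H2AC13. Just 1 member passed the test in 5 pairs, and in 3 pairs neither passed. Among those 5, both differences were below 0 for H2BC21 with H2AC20 (-0.58 and -0.41) and H2BC26 with H2AC25 (-0.40 and -0.26). The same held for H3C7 with H2BC9 (-0.28 and -0.44) and H2AC8 with H2BC8 (-0.76 and -0.19). In the pair H2AC14 and H2BC14, starts 245 bases apart, the differences were 0.24 and -1.87. H2AC14 was at 8.31 in glucosamine replicate 1, against 6.32 and 6.82 in replicates 2 and 3. Among H2A and H2B genes with a promoter listed, 8 of 19 with the octamer fell (median -0.39) and 5 of 10 without it (median -0.36). Over the family 43.9% of measurements fell, and over all genes 14.1%. Whether paired genes passed together more often than other members was not tested.

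Genes that make, process and carry histones gave a background to these values, and their lists were read as counts. All measured genes of the processing, decay, chaperone and licensing lists lay above the table's median signal. Of all genes above it 22.1% fell and 17.6% rose. In the list for transcription and 3′ processing of histone mRNA 10 of 21 measured genes fell (47.6%), 1 rose (4.76%) and 10 did not pass (median -0.01). SLBP had 9.24, 9.22 and 9.23 after glucosamine, against 9.89, 9.73 and 9.78 in control cells, a fall of 0.57 (adjusted p = 0.00034) without overlap. The locus-body genes NPAT (-0.34) and CASP8AP2 (-0.42), the cyclin genes CCNE1 (-0.48) and CCNE2 (-1.45), CDK2 (-0.48), the cap-binding gene NCBP1 (-0.48) and the endonuclease gene CPSF3 (-0.69), which cuts histone pre-mRNA, fell as well. HINFP, a transcription factor of H4 genes, rose by 0.29 (adjusted p = 0.00444). CPSF2 (-0.20) and CSTF2 (-0.23) completed the falls; without single arrays of either group their adjusted p reached 0.146 (control replicate 2) and 0.113 (glucosamine replicate 2). The U7 snRNP genes LSM10 and LSM11, named after their values were seen, did not pass, at 0.18 and 0.23.

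Of 17 genes of histone mRNA decay 3 rose and 1 fell (median 0.01). These are 17.6% and 5.88%, against 17.6% and 22.1% of all genes above the table's median signal. The decapping gene DCP2 rose by 0.28 and LSM6 fell by 0.30. The uridylyltransferase genes TUT4 and TUT7 rose by 0.24 each, with adjusted p of 0.0269 and 0.0437, which reached 0.0970 and 0.140 without glucosamine replicate 3. UPF1 and the stem-loop exonuclease gene ERI1, also named after their values were seen, did not pass, at 0.06 and 0.00. Among 25 chaperone and import genes 12 fell (48.0%, against the same 22.1%) and 1 rose (median -0.23). NASP, a carrier of soluble H3 and H4, fell by 0.67, the CAF-1 subunit genes CHAF1A and CHAF1B by 0.49 and 0.65, ASF1B by 0.62 and HIRA by 0.63, whereas ASF1A, named after its value was seen, did not pass (0.03). NAP1L1 rose by 0.23 (adjusted p = 0.0376, and 0.129 without glucosamine replicate 3). Of 30 licensing genes 26 fell (86.7%, against the same 22.1%) and 1, ORC4, rose by 0.22 (median -0.48). The ORC4 adjusted p was 0.0372, and 0.131 without control replicate 2. MCM2 is counted in both of the last lists.

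Histone variants, many of them made outside S phase from ordinary polyadenylated messages, served as a comparison within the histone superfamily. Of 16 with a measurement 3 fell (18.8%, against 14.1% of all genes) and 0 rose (median -0.06). Among the 16, 4 lay at or below the table's median signal. H2AX, the variant phosphorylated at DNA breaks and itself able to make a stem-loop message, had 8.55, 8.40 and 8.38 after glucosamine, against 9.11, 8.90 and 8.88 in control cells (-0.52, adjusted p = 0.00214). MACROH2A1 fell by 0.35 (adjusted p = 0.00193) and H2AZ1 by 0.23 (adjusted p = 0.028, and 0.0955 without control replicate 3). H3-3B, which encodes the replacement H3.3, was at 9.74 to 9.81 after glucosamine and 9.66 to 9.79 in control cells (0.05). H2AZ2 (-0.08), the centromeric CENPA (0.06) and H1-10 (0.22) did not pass. H3-3A was not analysed here. The difference between this list and the replication-dependent genes was not tested.

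**Figure D4:**
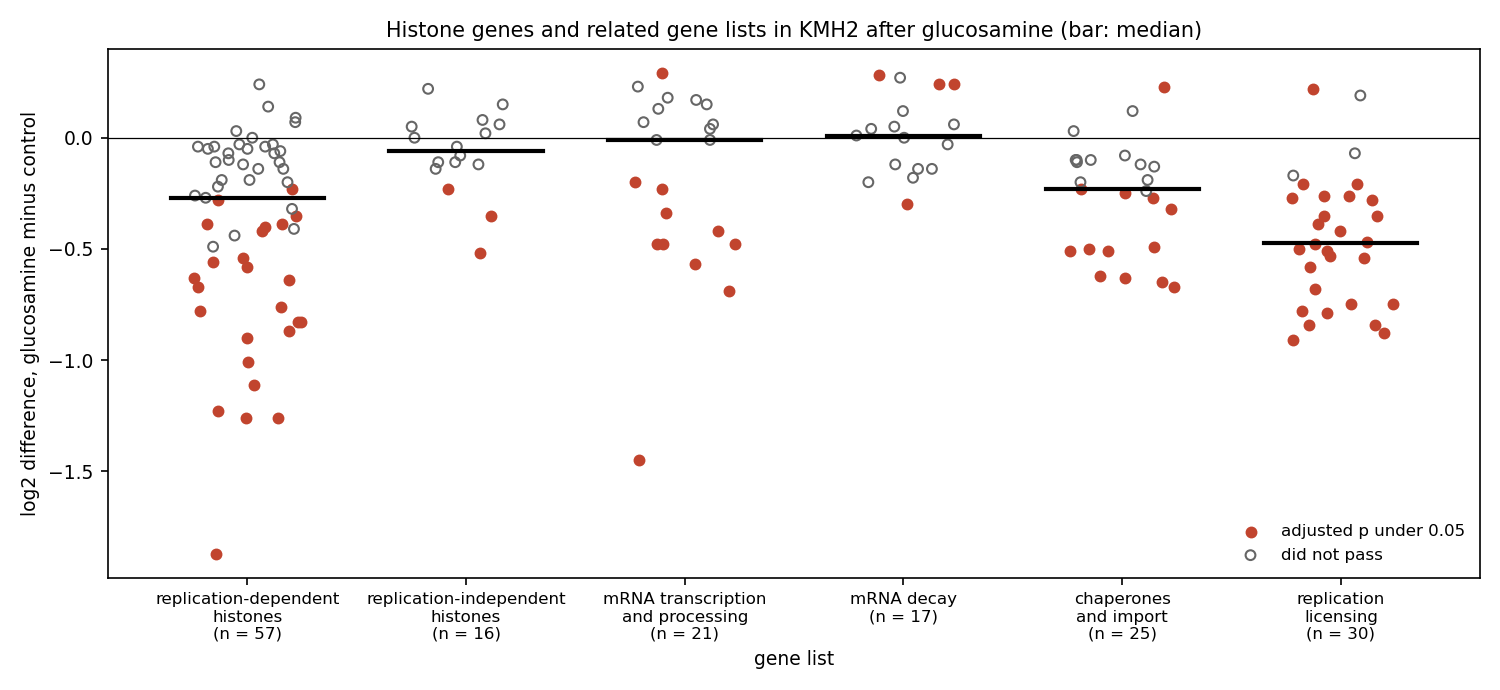
Log2 difference (KMH2 glucosamine minus KMH2 control) of each gene in the histone family and 5 related lists; filled points passed the test, bars are medians. The medians are -0.27, -0.06, -0.01, 0.01, -0.23 and -0.48 in the order shown. The counts that fell are 25 of 57, 3 of 16, 10 of 21, 1 of 17, 12 of 25 and 26 of 30. Of all genes 14.1% fell.

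In Ramos against KMH2 control cells, histone genes differed in both directions, and the share that was higher lay below that of genes in general. Of 57 measurements 8 were higher (14.0%, against 22.6% of all genes), 16 were lower (28.1%, against 21.6%) and 33 did not pass, with a median of -0.11 (0.06 for all genes). Among the 42 members above the table's median signal 11.9% were higher and 33.3% lower, against 27.5% and 32.5% of all genes above it. These differences in share were not tested. Both Ramos arrays bear on the family's median, which was -0.37 without Ramos replicate 1 and 0.08, reversed, without Ramos replicate 2. Each of these fits rests on a lone Ramos array. This comparison uses the same 3 control arrays as that with glucosamine. It asks how the family differs between a Burkitt and a Hodgkin line.

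**Figure D5:**
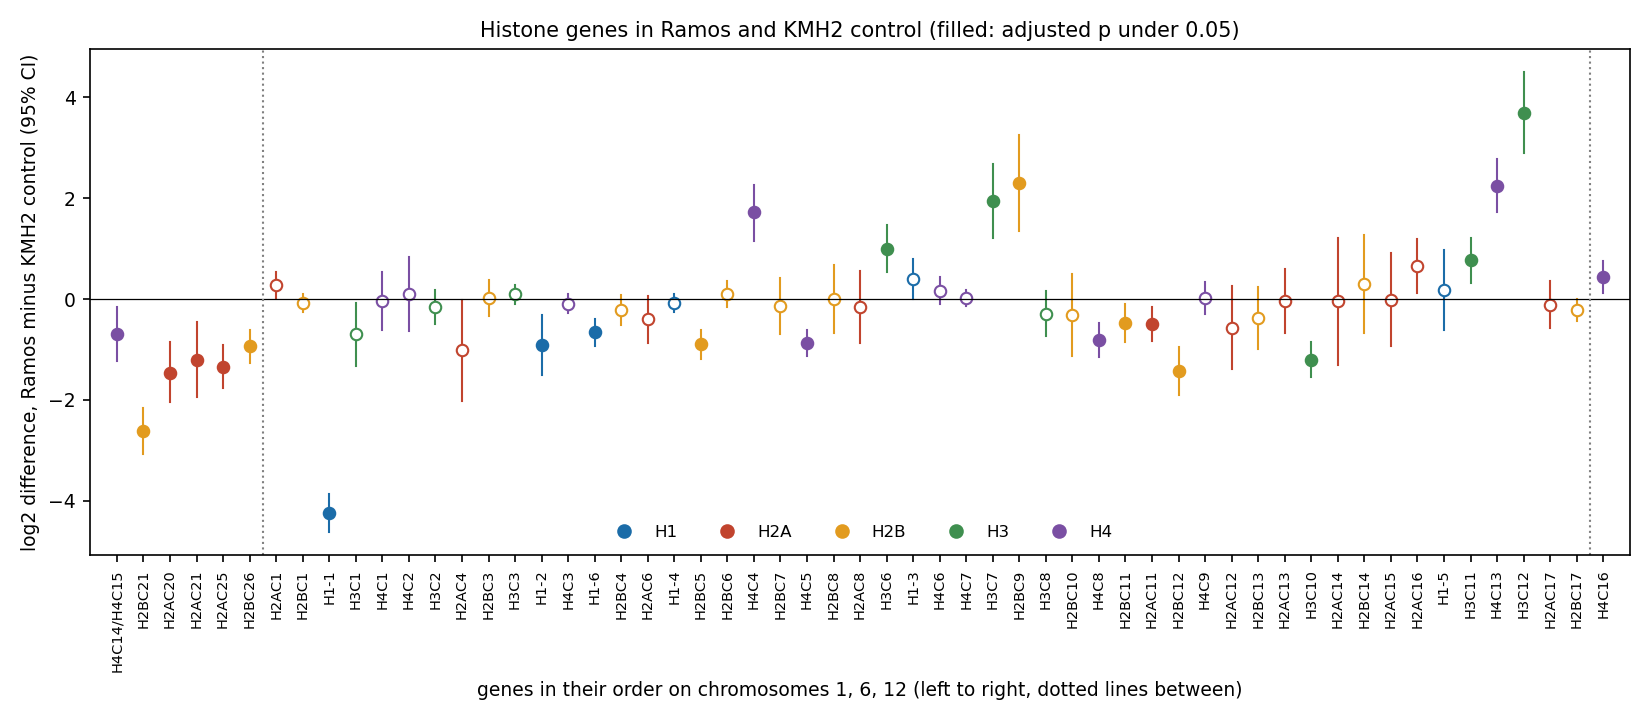
Log2 difference (Ramos minus KMH2 control) of the 57 histone measurements with 95% confidence intervals, in their order along chromosome 1, chromosome 6 and chromosome 12; filled points passed the test (n = 2 Ramos and 3 KMH2 control arrays). The 6 genes on chromosome 1 are all filled and below 0; on chromosome 6 the values run from -4.24 (H1-1) to 3.70 (H3C12).

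The genes higher in Ramos included several that lay below the table's median signal in KMH2. H3C12 had 9.60 and 8.11 in the 2 Ramos arrays, against 5.14, 5.21 and 5.12 in KMH2 control arrays. Both Ramos arrays were far above the controls, and the difference was 3.70 ± 0.35 (13.0-fold, adjusted p = 4.83e-05). Signals below the table's median of 5.7 may be near the array's floor, so the folds of such genes are approximate. H2BC9 had 10.33 and 8.88 in Ramos and 7.72, 6.92 and 7.26 in KMH2 control cells (4.93-fold, adjusted p = 0.00213). H4C13 had 7.60 and 6.68 in Ramos and 4.99, 4.87 and 4.84 in KMH2 control cells (4.72-fold, adjusted p = 7.51e-05). In both, each Ramos array exceeded each control array, the first by the wider margin. H3C7 (1.95), H4C4 (1.72), H3C6 (1.00), H3C11 (0.77) and H4C16 (0.44) were higher as well. H3C7 and H2BC9, neighbours with starts 979 bases apart, were thus both higher. The call of H4C16, the lone member on chromosome 12, had an adjusted p of 0.0298, and 0.0621 to 0.110 without any 1 control array or without Ramos replicate 1.

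H1-1 was the gene furthest below KMH2. It had 4.66 and 4.58 in Ramos, against 8.98, 8.79 and 8.82 in KMH2 control cells. The Ramos arrays were close to each other and below the table's median, possibly at the floor, and the difference was -4.24 ± 0.17 (approximately 18.9-fold, adjusted p = 2.07e-07). H2BC21 had 6.37 and 6.31 in Ramos and 8.74, 9.08 and 9.05 in KMH2 control cells (-2.62, 6.13-fold, adjusted p = 1.25e-05). H2AC20 (-1.46), H2BC12 (-1.43), H2AC25 (-1.34), H2AC21 (-1.20) and H3C10 (-1.20) were lower by over a log2 unit. H2BC26 (-0.94), H1-2 (-0.91), H2BC5 (-0.90), H4C5 (-0.87), H4C8 (-0.81), H4C14/H4C15 (-0.69), H1-6 (-0.66), H2AC11 (-0.49) and H2BC11 (-0.48) followed. The H1-2 call was lost without control replicate 2 or 3 (adjusted p 0.0604 and 0.0589). Those of H2AC11, H2BC11 and H4C14/H4C15 were lost without several single arrays, with adjusted p up to 0.112, 0.126 and 0.237 without Ramos replicate 2. Of the 5 genes with the steepest falls after glucosamine, H1-1 was thus lower here and the other 4 did not pass. Their differences in Ramos were 0.29 for H2BC14 (95% interval -0.68 to 1.27), 0.18 for H1-5 (-0.61 to 0.98), -0.69 for H3C1 (-1.32 to -0.07, adjusted p = 0.0717) and -0.01 for H2AC15 (-0.94 to 0.92). Both Ramos arrays of H3C1 lay below all control arrays. The further probe set that names both H2BC15 and H2AC15 was higher in Ramos (0.44, adjusted p = 0.0144).

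By chromosome, a pattern seen after the values were known, the 6 members on chromosome 1 (H4C14/H4C15, H2BC21, H2AC20, H2AC21, H2AC25 and H2BC26) were all lower in Ramos, with a median of -1.27; of all genes on chromosome 1 23.4% were lower. The 5 distinct probe sets there that name several histone genes ran from -1.39 to -0.63, and 2 of them passed. Those naming H3C13, H3C14 and H3C15, at -0.66, -0.63 and -0.66, are near repeats of each other and did not pass. Of the 50 members on chromosome 6, 7 were higher and 10 lower. Copy number of these chromosome 1 genes was not measured, and its part in the result was not tested.

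The Ramos arrays differed from each other over the family. Replicate 1 exceeded replicate 2 in 54 of 57 cases (94.7%, against 51.1% of all genes), by a median of 0.40 (0.01 for all genes), and by 1 or more in 13 cases (22.8%, against 1.28% of all genes). H2AC4 was at 8.75 and 7.23 and H2AC12 at 7.65 and 6.13 on the 2 arrays, both further apart than the 3 control arrays, which span at most 0.13 for these genes. H2BC5, H2BC12 and H3C6 went the other way, at 7.38 and 7.54, 9.62 and 10.39, and 3.56 and 4.41. The licensing genes were also higher in replicate 1, in 28 of 30 cases, by a median of 0.73. With 1 array each no test of this difference exists, and neither array is assigned a treatment.

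Probe sets that name several histone genes covered the symbols without a probe set of their own, other than H2BC18, which is listed only with genes outside the family. All names on 13 such probe sets are members, and 10 of the 13 hold distinct values. After glucosamine 5 of the 10 were lower, 1 was higher (the H4C14 and H4C15 probe set above) and 4 did not pass. Of all genes 14.1% were lower and 12.0% higher. The 5 are not separate measurements: those naming H3C13, H3C14 and H3C15 had nearly the same differences (-0.79, -0.79 and -0.82). A further one, at -0.85, names H3C10 and H2AC13, which are counted above with probe sets of their own. That naming H3C4 and H2AC7 differed by -0.85 (adjusted p = 0.00541). Those naming H4C11 and H4C12 differed by -0.33 and -0.29 and did not pass. In Ramos against KMH2 control cells 2 of the 10 were lower and 1 was higher, against 21.6% and 22.6% of all genes. The higher one names H2BC15 and H2AC15 (0.44), and after glucosamine it differed by -0.25 and did not pass.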

How the data were processed

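Total RNA for 8 arrays was labelled with a whole-transcript kit, which does not depend on poly(A) tails, and hybridised to HuGene-1_1-st-v1 arrays, per the labels' protocols. The authors deposited 1 log2 signal per probe set and array (33297 probe sets); how these were background-corrected, summarised and normalized is not given in the sources used here. They were used as deposited. The values carry no counts, so the number of arrays limits precision. Names came from GEO's platform annotation, which can be old: 19181 had 1 symbol and were tested, 2055 had several and 12061 were unlisted. Entrez identifiers of 19143 matched RefSeq (GRCh38.p14), all 58 histone genes among them. Each gene was taken from its probe set with the highest mean over 8 arrays; no histone gene had several.

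Differences were tested with limma 3.58.1 in R 4.3.3 (lmFit, eBayes, two-sided), with Benjamini-Hochberg adjustment over all 19181 probe sets and a threshold of 0.05; the code was tested on simulated data. KMH2 glucosamine was set against KMH2 control over the 6 KMH2 arrays, and Ramos against KMH2 control over all 8 arrays in 3 groups. For Ramos nothing says that the arrays came from separate cultures, so its spread may be technical. Deviations of same-numbered KMH2 arrays from their group means had correlations of 0.46, 0.23 and 0.23, and other pairings -0.37 to 0.25. Number 1 stood apart, but glucosamine replicate 3 had 0.25 with control replicate 2 and glucosamine replicate 2 had 0.18 with control replicate 3. Pairing by number is thus an assumption from the design text's before-and-after wording. The main fit left the arrays unpaired, and the replicate block was the alternative that paired them. Any member could be named; outside the family, the rule named replication-independent histone genes, list genes past the threshold or among the 6 smallest p of a list, and SLBP, NPAT, CASP8AP2, CCNE1, CCNE2, H2AX, H2AZ1, H3-3A, H3-3B and H1-10. Members, lists and tests were chosen with earlier results of these data known. Promoters came from RefSeq, 200 bases before 1 listed start per gene. Alternatives were other probe set selections, quantile normalization, eBayes and array weight settings, the replicate block, and leaving out arrays.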

Additional observations from a re-analysis of the deposited data

How the results depend on the processing

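No histone gene rose after glucosamine under the alternatives counted over the 57 measurements or the 42 brighter ones; with probe sets of several histone genes added 1 rose. The 25 falls became 15 with all probe sets in the fit (26.3%, against 11.6% of all genes), 6 with the spread shared by all 8 arrays (10.5%, against 6.24%) and 12 to 35 without 1 array; the shares under the last also reflect fewer arrays. The median of -0.27 became -0.40 without dim probe sets, -0.38 with array weights, -0.38 without both number 1 arrays, and -0.41 to -0.22 without 1 array. The pairing by replicate block gave 32 falls, lost no call of the histone genes, added 7 and left the median at -0.27. Of the 25 falls 10 held in every fit without 1 array, and 5 (H1-1, H1-5, H2BC14, H3C1 and H3C10) in every alternative that tested them.

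With the spread shared by all 8 arrays the genes past the threshold numbered 5 (11 in the main setting) for transcription and processing, 2 (4) for decay, 6 (13) for chaperones, 1 (3) for replication-independent histones and 7 (27) for licensing. Of all genes 6.24% fell and 5.27% rose in that setting. Decay also gave 2 with all probe sets, 8 without dim probe sets, 7 with array weights and 2 to 4 without 1 array. Replication-independent histones gave 5 without both number 1 arrays. In Ramos 19 of 24 calls held without any 1 array. The median of -0.11 was -0.22 without dim probe sets, -0.37 without Ramos replicate 1 and 0.08, reversed, without Ramos replicate 2. A lone Ramos array was assumed to vary like the other groups. The causes were not tested. Signal near the array floor limits the 15 dim members, and others, such as H1-1 and H3C12, in the group where they are dim.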
